A study of Equus caballus with 15 samples.

Results

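The SLAM family is a group of 9 related surface receptors of blood cells, and all 9 of its genes, SLAMF9, SLAMF8, CD244, SLAMF6, SLAMF1, SLAMF7, CD84, CD48 and LY9, had a row among the 16932 protein-coding genes measured here in equine macrophage cultures. The family was selected on measured values, because SLAMF9 was higher with IL-1ß and close to lost with PRP lysate, and its genes were then taken by symbol. All 9 passed the filter used for testing, a mean of at least 1 CPM (a gene's reads scaled by the total reads of its library).

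Most SLAM receptors are self-ligands, each binding the same receptor on a neighbouring cell, while CD244 binds CD48. Several carry a tyrosine switch motif in the cytoplasmic tail that recruits the small adaptors SAP (SH2D1A) or EAT-2 (SH2D1B) and through them Src family kinases, or inhibitory phosphatases when the adaptors are scarce. CD48 is held in the membrane by a lipid anchor, and SLAMF8 and SLAMF9 have short tails that lack the switch motif. In macrophages SLAMF1 is known as a sensor of Gram-negative bacteria that promotes phagosome maturation, SLAMF8 as a restraint on the phagocyte oxidase, and SLAMF7 as a partner of the integrin Mac-1 in engulfing blood tumour cells. Many members are also carried by T cells, NK cells and B cells.

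Macrophages were grown from blood mononuclear cells of 2 horses, isolated by adherence and differentiated with M-CSF at 30 ng/ml for 5 days. The 5 groups, each of 3 libraries, were untreated macrophages, macrophages given IL-1ß at 10 ng/ml, and macrophages given the same IL-1ß together with an orthobiological therapy (OT) as 25% of the medium. The OTs were autologous conditioned serum (ACS, also labelled IRAP), conditioned medium of mesenchymal stromal cells (MSC-CM) and a lysate made from platelet-rich plasma (PRP lysate), each from 3 donor horses. The study names 3 horses as donors of blood and bone marrow for all OTs, so the OT groups share donors. The main tests between OT groups did not pair by donor. Exposure lasted 24 h, and all 5 groups share the M-CSF. How the cells of the 2 horses were spread over the libraries is not given in the sources used here. The 3 libraries of an OT group differ in the donor of the product and may differ in the macrophage donor, whereas the study calls the untreated and the IL-1ß libraries technical replicates, so the p-values measure spread that is in part technical.

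The libraries held 28410735 to 47894072 reads on genes. Along the first principal component, which took 55.4% of the variance over the genes tested, IL-1ß replicate 3 lay at -103 and PRP lysate replicate 1 at -51.7, against -20.7 to 26.6 for the other 13 libraries. Both had the lowest summed CPM of 11 macrophage markers, 3452 and 2041 against 3655 to 6418 elsewhere, and the highest sums of 11 T cell markers, 2530 and 2535 against 1230 to 2238. Their sums of 8 NK cell markers were also the highest, at 762 and 1267, and were 278 to 634 in the other libraries. The markers within a list did not all move alike. In IL-1ß replicate 3 MRC1 was lowest of the group, at 1152 CPM against 3394 and 2291, while CD14, AIF1, MSR1 and C1QC were highest. In both libraries CD3E (520 and 507 CPM) was highest of its group and CD28 (41.5 and 51.8 CPM) lowest. Of the NK cell markers GNLY was highest and NCR1 lowest in both. Bulk RNA cannot tell fewer cells of one type from less RNA in each cell, and a technical difference of these 2 libraries was not tested.

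**Figure D1:**
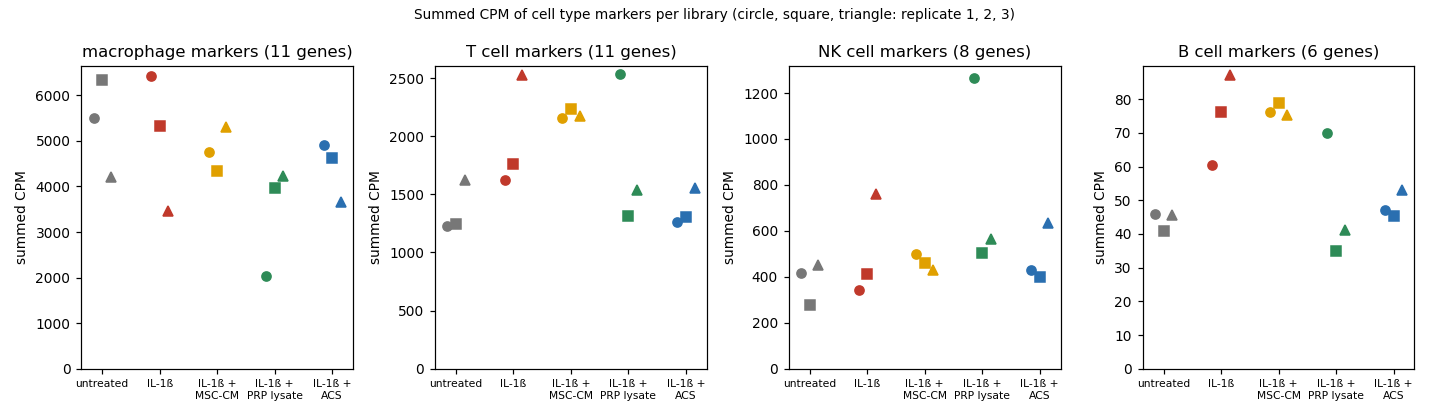
Summed CPM (vertical axes) of cell type markers in each of the 15 libraries by treatment group (horizontal axes), with a point for each library. IL-1ß replicate 3 (red triangle) and PRP lysate replicate 1 (green circle) have the lowest macrophage sums, 3452 and 2041, and the highest T cell sums, 2530 and 2535.

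The macrophage label was checked against its own markers. All 11 macrophage markers with a row were above the filter, although CD14, a defining monocyte marker, held only 1.38 to 4.32 CPM, and T cell and NK cell markers were present in every library. Summed T cell markers ranged over 1230 to 1624 CPM in untreated, 1620 to 2530 in IL-1ß, 2153 to 2238 in MSC-CM, 1318 to 2535 in PRP lysate and 1263 to 1554 in ACS libraries. Summed B cell markers, over 6 genes, ran from 34.9 to 87.2 CPM, and none of the T, NK or B cell markers listed was at 0 throughout. The MSC-CM and IL-1ß groups were thus higher than the untreated and ACS groups in T cell marker sums, apart from a narrow overlap at 1620 to 1624 CPM between the IL-1ß and untreated ranges. The part of these cells in the member results below was not tested.

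SLAMF9, an orphan receptor described on macrophages and dendritic cells, is the member on which the family was selected, so its levels in those groups are a description. Untreated libraries held 2.20, 0.95 and 0.18 CPM, which are 86, 34 and 6 reads. With IL-1ß the 3 libraries held 3.78, 7.06 and 7.05 CPM, 5.37 times the untreated mean, and with PRP lysate they held 0.54, 0.31 and 0.07 CPM, which are 20, 13 and 2 reads. The lowest IL-1ß value, 3.78 CPM, exceeded the highest untreated value, 2.20 CPM, and no PRP lysate library reached 1 CPM.

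The MSC-CM libraries, at 5.44, 1.88 and 4.40 CPM, overlapped those of IL-1ß alone. The ACS libraries, at 0.46, 0.18 and 0.48 CPM or 17, 7 and 23 reads, did not overlap either group and lay in the range of PRP lysate. In order of group means SLAMF9 went from IL-1ß (5.97 ± 1.89 CPM, SD, n = 3) through MSC-CM (3.90 ± 1.83) and untreated (1.11 ± 1.02) to ACS (0.38 ± 0.17) and PRP lysate (0.31 ± 0.23). Each pair of neighbours in that order overlapped, for example untreated at up to 2.20 CPM and MSC-CM from 1.88 CPM.

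The libraries of ACS and MSC-CM were not used in the selection, and between them SLAMF9 could be tested. It was lower with ACS by a log2 fold change of -1.76 ± 0.37 (SE; limma on log2(CPM + 1), adjusted p = 0.0299), and all 3 ACS libraries lay below all 3 MSC-CM libraries. The log scale with 1 CPM added compresses so low a gene: the MSC-CM mean was 10.4 times the ACS mean. The call was lost with edgeR's quasi-likelihood test on recovered reads (log2 fold change -3.36, adjusted p = 0.0704), with a pseudocount of 0.1 CPM (-3.02, adjusted p = 0.0581 by limma), and when any 1 of the 6 libraries other than MSC-CM replicate 2 was left out.

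**Figure D2:**
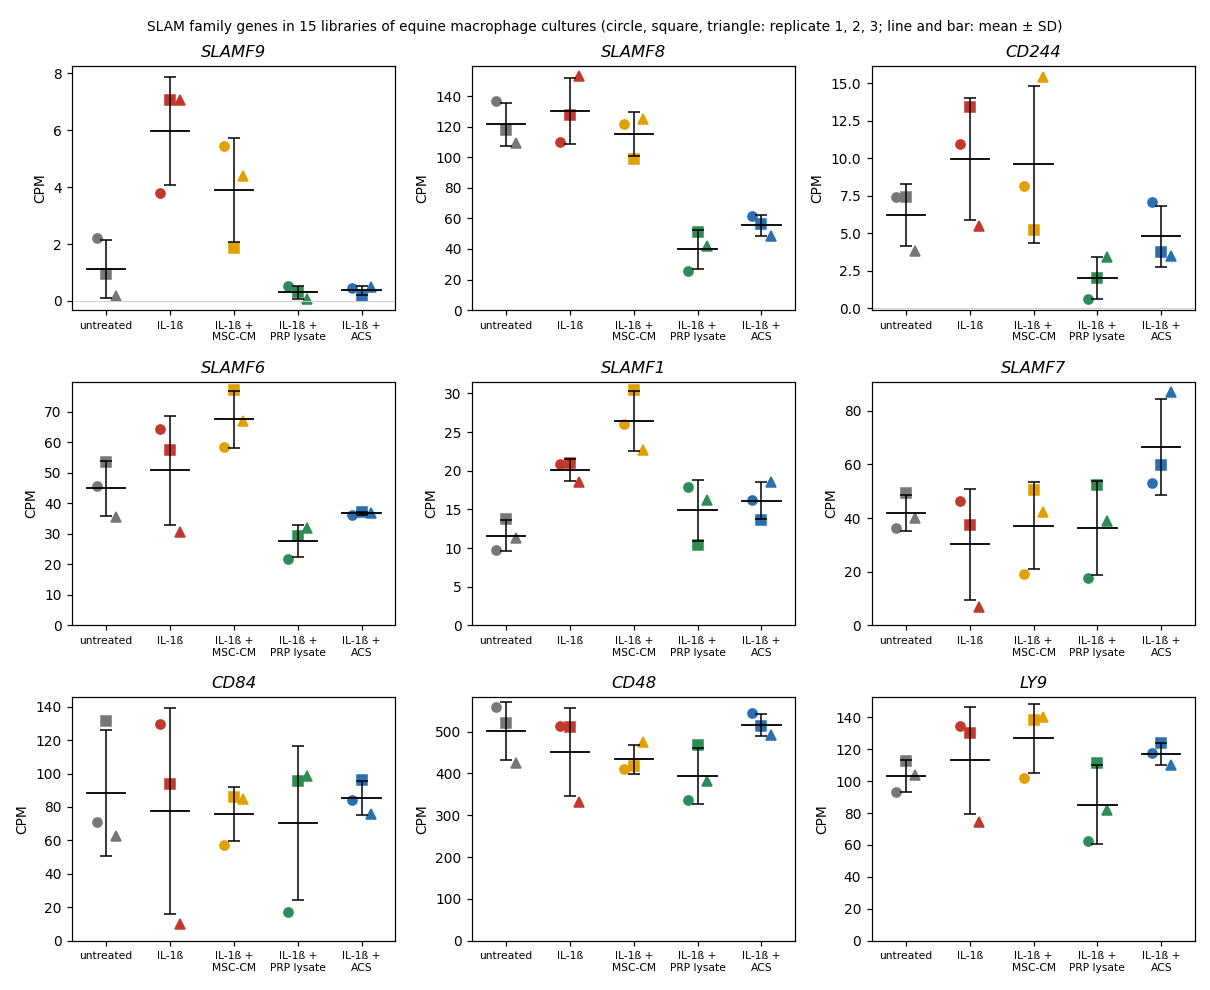
CPM (vertical axes, linear) of the 9 SLAM family genes in each library by treatment group (horizontal axes), with mean ± SD over 3 libraries. For SLAMF9 and SLAMF8 the PRP lysate and ACS libraries all lie below the IL-1ß and MSC-CM libraries, whereas CD84 and SLAMF7 are lowest in IL-1ß replicate 3, at 9.82 and 6.88 CPM.

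SLAMF8, the other short-tailed member, had the lowest adjusted p of the members tested, and was lower with both blood-derived OTs. Its libraries held 137, 118 and 110 CPM untreated, 110, 128 and 153 with IL-1ß and 122, 99.1 and 125 with MSC-CM. They held only 25.6, 51.2 and 42.2 CPM in the PRP lysate group and 61.9, 56.5 and 48.4 in the ACS group. The 9 libraries without a blood-derived OT lay between 99.1 and 153 CPM and the 6 with one between 25.6 and 61.9, so these did not overlap, while PRP lysate and ACS overlapped each other.

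With ACS, SLAMF8 was lower than with IL-1ß alone by a log2 fold change of -1.21 ± 0.22 (SE; limma, adjusted p = 0.0107). Against MSC-CM it was lower with PRP lysate (-1.56 ± 0.22, limma adjusted p = 0.00132) and with ACS (-1.04 ± 0.22, limma adjusted p = 0.0311). The PRP lysate difference kept its call in each of the 6 fits without 1 library of either group, whereas the ACS difference from MSC-CM kept it in 1 of 6 and was lost under other scalings. The ACS difference from IL-1ß lost its call without ACS replicate 3 (limma adjusted p = 0.0559) and with only the 2 groups in the fit (limma adjusted p = 0.0636). With PRP lysate against IL-1ß, a comparison used in the selection, the log2 fold change was -1.73 ± 0.22, and -1.33 without the 2 libraries that lay apart. Between PRP lysate and ACS SLAMF8 did not pass (-0.53 ± 0.22, limma adjusted p = 0.842).

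CD244 (2B4), the receptor for CD48 on NK cells, cytotoxic T cells and myeloid cells, was low in these cultures. It held 7.43, 7.43 and 3.85 CPM untreated, 10.98, 13.4 and 5.46 with IL-1ß, 8.18, 5.25 and 15.4 with MSC-CM, 0.62, 2.03 and 3.41 in the PRP lysate group and 7.12, 3.74 and 3.51 in the ACS group. All PRP lysate libraries lay below all libraries of every other group, the nearest being 3.41 against 3.51 CPM in ACS. CD244 was lower with PRP lysate than with MSC-CM, by -1.81 ± 0.45 (SE; limma, adjusted p = 0.0395). It differed by -1.001 ± 0.45 from ACS, which did not pass (limma adjusted p = 0.842). Without PRP lysate replicate 1, which held the lowest value, the difference from MSC-CM was -1.42 (limma adjusted p = 0.1), and 4 of the 6 fits without 1 library lost the call. Without both libraries that lay apart it was called at the same -1.42 (limma adjusted p = 0.0245). IL-1ß replicate 3 is in neither group compared, so leaving it out acted only through the spread shared by all groups.

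Its ligand CD48, by contrast, varied little. CD48 ranged from 331 to 559 CPM over the 15 libraries, with group means from 395 ± 66.9 with PRP lysate to 516 ± 26.3 with ACS (SD, n = 3). It passed in none of the comparisons tested. PRP lysate held 335, 467 and 382 CPM, MSC-CM 410, 419 and 474, and ACS 544, 513 and 492. The ACS libraries thus lay above both other OT groups, and all other pairs of groups overlapped. PRP lysate differed from ACS by -0.40 ± 0.18 and ACS from MSC-CM by 0.25 ± 0.18 on the log2 scale, neither of which passed (limma adjusted p = 0.842 and 0.625).

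SLAMF6 (Ly108, NTB-A), a self-ligand receptor of T, B and NK cells, was highest with MSC-CM. It held 45.7, 53.5 and 35.6 CPM untreated, 64.4, 57.6 and 30.7 with IL-1ß, 58.6, 77.1 and 66.9 with MSC-CM, 21.8, 29.4 and 31.9 in the PRP lysate group and 36.2, 37.1 and 37.0 in the ACS group. No MSC-CM library fell as low as any PRP lysate or ACS library, and the IL-1ß group spanned most of the range because replicate 3 held 30.7 CPM. SLAMF6 was lower with PRP lysate than with MSC-CM by -1.26 ± 0.25 (SE; limma, adjusted p = 0.0114), and by -0.85 ± 0.25 with ACS, which did not pass (limma adjusted p = 0.122). The PRP lysate call held without PRP lysate replicate 1 (-1.11, limma adjusted p = 0.0313). Leaving out IL-1ß replicate 3 too, which is in neither group, left the difference unchanged and acted only through the spread shared by all groups (limma adjusted p = 0.000623). It was narrowly lost without MSC-CM replicate 2 or 3 (limma adjusted p = 0.0522 and 0.053).

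SLAMF1 (CD150, SLAM) had the smallest spread within groups after CD48, an SD of 0.25 on the log2(CPM + 1) scale. It held 9.73, 13.8 and 11.3 CPM untreated, 20.9, 21.0 and 18.5 with IL-1ß, 26.0, 30.5 and 22.7 with MSC-CM, 17.9, 10.4 and 16.3 in the PRP lysate group and 16.2, 13.7 and 18.5 in the ACS group. The IL-1ß libraries all lay above the untreated ones, the MSC-CM libraries above all others, and PRP lysate and ACS overlapped. PRP lysate differed from MSC-CM by -0.81 ± 0.21 (SE; limma, adjusted p = 0.0474), past the p-value threshold and short of 2-fold, so it was not called, and ACS by -0.68 ± 0.21 (limma adjusted p = 0.143). Summed T cell markers were likewise highest with MSC-CM, except for the 2 libraries that lay apart, and the part of T cells in the SLAMF1 and SLAMF6 values was not tested.

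LY9 (CD229), a self-ligand receptor of T and B cells, ranged from 62.3 to 140 CPM and passed in no comparison tested. Its group means ran from 85.3 ± 24.8 with PRP lysate to 127 ± 21.5 CPM with MSC-CM (SD, n = 3), and the groups overlapped.

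SLAMF7 (CRACC, CS1), a receptor of macrophages, NK cells and plasma cells that signals through EAT-2, was highest with ACS. It held 36.2, 49.4 and 39.95 CPM untreated, 46.2, 37.6 and 6.88 with IL-1ß, 19.0, 50.4 and 42.2 with MSC-CM, 17.6, 52.3 and 38.8 in the PRP lysate group and 53.3, 59.8 and 86.9 in the ACS group. Every ACS library lay above every library of the other groups. ACS differed from IL-1ß by 1.44 ± 0.59 (SE; limma, adjusted p = 0.204), which did not pass. Without IL-1ß replicate 3 that difference was 0.63 (limma adjusted p = 0.645), and the difference of IL-1ß from untreated moved from -0.81 to 0.01.

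CD84, a self-ligand receptor of myeloid cells, platelets and lymphocytes, had the largest spread within groups of the 9 members, an SD of 1.12 on the log2(CPM + 1) scale. It held 71.3, 131 and 62.3 CPM untreated, 130, 93.5 and 9.82 with IL-1ß, 57.1, 85.8 and 84.9 with MSC-CM, 17.0, 95.8 and 98.4 in the PRP lysate group and 84.3, 96.0 and 75.5 in the ACS group. The low values were those of the 2 libraries that lay apart, and all 5 groups overlapped. CD84 passed in no comparison tested, and without IL-1ß replicate 3 its difference between IL-1ß and untreated turned from -0.73 to 0.39, and that between ACS and IL-1ß from 0.75 to -0.37.

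Within the 2 libraries that lay apart the members moved unequally. In IL-1ß replicate 3 the other 2 libraries of the group averaged 11.4 times its CD84, 6.09 times its SLAMF7, 2.24 times its CD244 and 1.99 times its SLAMF6. SLAMF9 and SLAMF8 were higher there than the mean of the other 2, at 7.05 against 5.42 CPM and 153 against 119 CPM. In PRP lysate replicate 1 the other 2 libraries averaged 5.73 times its CD84, 4.41 times its CD244, 2.59 times its SLAMF7 and 1.82 times its SLAMF8. SLAMF1 and SLAMF9 were higher in that library than the mean of the other 2. SH2D1B, the EAT-2 adaptor of SLAMF7, was also low in both, at 2.49 CPM against 28.6 and 18.0 in the other IL-1ß libraries and at 11.4 against 48.5 and 48.3 in the other PRP lysate libraries.

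**Figure D3:**
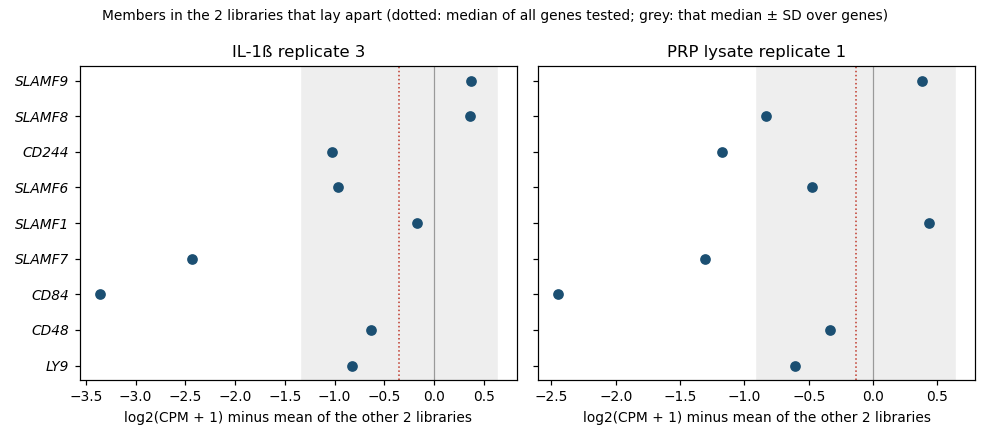
Difference on the log2(CPM + 1) scale (horizontal axes) between IL-1ß replicate 3 (left) or PRP lysate replicate 1 (right) and the mean of the other 2 libraries of its group, a point for each SLAM family gene. CD84, at -3.36 and -2.45, is the farthest below 0 in both libraries, and SLAMF9 is above 0 in both, at 0.38.

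Taking SLAMF9 apart as the member used in the selection, the other 8 members were counted in each comparison, where called means an adjusted p of at most 0.05 and at least a 2-fold change. With PRP lysate against MSC-CM 3 of 8 were called, CD244, SLAMF6 and SLAMF8, all lower, where 2.61% of the 11628 genes tested were called. With the replicate number as a block over the 12 numbered libraries 1 of 8 was called, SLAMF8 (limma adjusted p = 0.0226), while CD244 had 0.172 and SLAMF6 0.0609 as limma adjusted p. The same block over the 6 libraries of these 2 groups alone, an alternative chosen after seeing the data, kept all 3. With ACS against IL-1ß 1 of 8 was called, SLAMF8, where 2.21% of all genes were, and with ACS against MSC-CM again SLAMF8 alone, where 1.23% were.

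With MSC-CM against IL-1ß 0 of 8 members were called by limma, DESeq2 or edgeR, and 0 had an unadjusted p of at most 0.05. Of all genes 0% were called there by limma and edgeR, DESeq2 called 2 genes, and 651 genes had an unadjusted p of at most 0.05. With PRP lysate against ACS 0 of 8 were called by limma, DESeq2 or edgeR, where 0.0946% of all genes were called. CD48, CD244 and SLAMF8 had an unadjusted p of at most 0.05 there, as had 5.19% of all genes, and the log2 fold changes of all 8 members were below 0, as were 55.2% of those of all genes.

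The comparisons used in the selection are given as a description. With PRP lysate against IL-1ß CD244 (-1.90 ± 0.45) and SLAMF8 (-1.73 ± 0.22) were among the genes called, where 3.09% of all genes were. With IL-1ß against untreated 0 of the 8 were called by limma, DESeq2 or edgeR, where 0.292% of all genes were, and 1 of the 8, SLAMF1 at 0.76 ± 0.21, had an unadjusted p of at most 0.05, as had 13% of all genes. Comparisons with the same IL-1ß or MSC-CM libraries on one side share them. Over all genes the median log2 fold change lay between -0.09 and 0.16 in the 7 comparisons, at 0.13 for ACS and 0.11 for PRP lysate against IL-1ß, and size factors from the median of ratios brought it within -0.02 to 0.02.

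**Figure D4:**
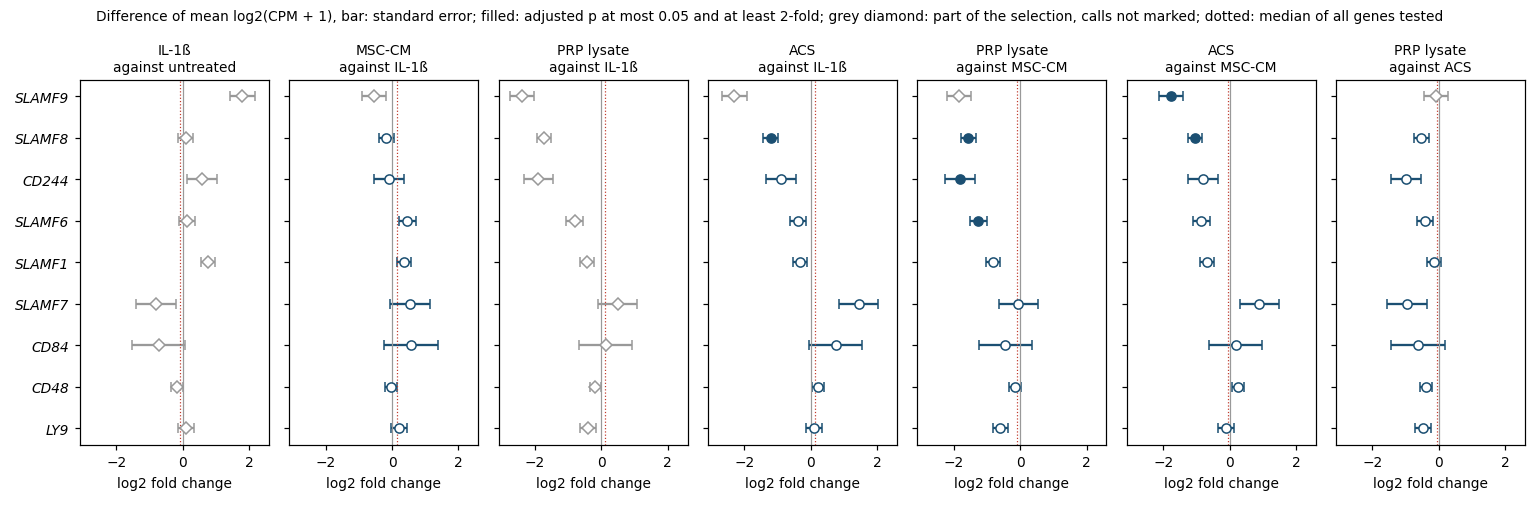
Difference of mean log2(CPM + 1) (horizontal axes) of the 9 members in the 7 comparisons, with bars for the standard error and filled points for called members. Grey diamonds are values that took part in the selection, shown as a description without marking calls, and SLAMF8 is called with ACS against IL-1ß (-1.21) and with PRP lysate (-1.56) and ACS (-1.04) against MSC-CM.

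The signalling partners of the receptors were followed in a list of 18 adaptors, kinases and phosphatases, all 18 of which were tested. LYN, a Src family kinase of myeloid and B cells, held 279, 226 and 117 CPM with IL-1ß, 164, 132 and 231 with MSC-CM, 35.8, 70.7 and 74.4 in the PRP lysate group and 142, 110 and 92.5 in the ACS group. All PRP lysate libraries lay below those of the other groups. LYN was lower with PRP lysate than with MSC-CM (-1.56 ± 0.36, limma adjusted p = 0.0244). Without PRP lysate replicate 1 that difference was -1.23 and lost its call (limma adjusted p = 0.0651). Without both libraries that lay apart it was called at the same -1.23 (limma adjusted p = 0.00488). IL-1ß replicate 3 is in neither group compared and acts there only through the shared spread. The list's median log2 fold change was -0.39 with PRP lysate against MSC-CM, beside -0.09 over all genes.

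The adaptors themselves did not pass with all 15 libraries. SH2D1A (SAP), which is known from T and NK cells, averaged 18.8 ± 1.48 CPM with MSC-CM and 8.64 ± 0.77 untreated, and with PRP lysate against MSC-CM it differed by -0.93 ± 0.28 (limma adjusted p = 0.088). Without PRP lysate replicate 1, which held 16.3 CPM against 6.74 and 7.32 in the other 2, the difference was -1.30 and was called (limma adjusted p = 0.00398). SH2D1B had its highest group mean with ACS, at 46.5 ± 8.95 CPM, against 16.4 ± 13.1 with IL-1ß (1.91 ± 0.71, limma adjusted p = 0.166). Without IL-1ß replicate 3 that difference was 0.99 (limma adjusted p = 0.521). That rank rests on PRP lysate replicate 1, at 11.4 CPM beside 48.5 and 48.3 in its group. Without it PRP lysate differed from ACS by 0.07.

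Further lists held the phagosome and oxidase genes known as partners of SLAMF1 and SLAMF8 (11 genes, among them BECN1, CYBB and NCF1) and those of SLAMF7 in phagocytosis (6 genes, among them ITGAM and TYROBP). All 17 were tested and 0 were called in any of the 7 comparisons by limma, where 0% to 3.09% of all genes were called. CD2 and CD58, relatives of the family outside its locus, were also tested without a call.

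Macrophage markers that passed were lower with the blood-derived OTs. Of the 11 tested, 3 were lower with PRP lysate than with MSC-CM (AIF1, C1QC and the haemoglobin scavenger receptor CD163), 2 lower with ACS than with IL-1ß (AIF1 and CD163), 1 lower with ACS than with MSC-CM (CD163), and none passed as higher. CD163 was also lower with PRP lysate than with ACS (-2.39, limma adjusted p = 0.0347), where no SLAM member passed. That call was lost without PRP lysate replicate 1 (-2.12, limma adjusted p = 0.0934). Leaving out IL-1ß replicate 3 too, which is in neither group, acted only through the shared spread (-2.12, limma adjusted p = 0.0178). With PRP lysate against IL-1ß 5 of 11 were lower, AIF1, C1QC, CD163, LYZ and MARCO. With PRP lysate against MSC-CM the list's median log2 fold change was -1.0002, beside -0.09 over all genes, and the only 2 markers above 0 were CD68 at 0.20 and MSR1 at 0.03. With ACS against MSC-CM the median was -0.27, beside -0.04 over all genes. Of the T cell markers 1 of 11, CD4, was lower with PRP lysate than with MSC-CM, where 2.61% of all genes were called. Of the NK cell markers 0 of 8 and of the B cell markers tested 0 of 5 were called by limma in any comparison, beside 0% to 3.09% of all genes. CD163 averaged 481 ± 203 CPM with MSC-CM, 11.4 ± 3.48 in the PRP lysate group and 64.6 ± 25.0 in the ACS group (SD, n = 3). Of 6 dendritic cell markers 3 fell below the filter, and of the 3 tested only FLT3, at group means of 0.95 to 4.50 CPM, was called. It was higher with IL-1ß than untreated (1.06, limma adjusted p = 0.0494). It was lower with PRP lysate than with IL-1ß (-1.52, limma adjusted p = 0.000718) and MSC-CM (-1.27, limma adjusted p = 0.00301). The first of these calls was lost without IL-1ß replicate 3 (0.97, limma adjusted p = 0.0956). Leaving out PRP lysate replicate 1 too, which is in neither group, acted only through the shared spread (limma adjusted p = 0.0256). BATF3 and CCR7 were not called, and averaged 49.1 and 211 CPM with PRP lysate against 47.0 and 176 with MSC-CM. The part of dendritic cells in the SLAMF9 values was not tested. The 3 platelet markers with a row summed to 0.55 to 3.55 CPM, and no plasma cell, platelet or neutrophil marker was called by limma. The summed macrophage markers were 4333 to 5306 CPM with MSC-CM, 2041 to 4236 in the PRP lysate group and 3655 to 4911 in the ACS group, and their part in the member results was not tested.

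The genes whose levels followed each member most closely were found by Pearson's r of log2(CPM + 1) over the 15 libraries, which share treatment groups and depth, so the values are a description. Those nearest to SLAMF9 were SORBS3 (0.94), CEBPD (0.93), TMEM187 (0.93), ALDH16A1 (0.93) and NAALADL1 (0.93). CEBPD, an acute-phase transcription factor, averaged 9.14 CPM untreated, 47.4 with IL-1ß, 42.0 with MSC-CM, 6.67 in the PRP lysate group and 8.16 in the ACS group. For SLAMF8 the nearest were ENSECAG00000013060 and RAB3IL1 (both 0.98), and for CD244 they were LYN (0.97) and AP2A2 (0.95). SLAMF6 was nearest to PLXNC1 and CDS2 (both 0.96), and SLAMF1 to LEF1 (0.94), a transcription factor known from T cells, and PXN (0.93).

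The remaining members followed other genes. CD84 was nearest to DOP1B and RAI14 (both 0.99), and SLAMF7 to INPP5F (0.98) and FNIP2 (0.97). CD48 was nearest to SCARB2 and SNX10 (both 0.94), and LY9 to ZFYVE16 (0.95) and ETV5 (0.93). Over the 13 libraries without the 2 that lay apart RAI14 had an r of 0.86 with CD84, while RAB3IL1 had 0.97 with SLAMF8 and SORBS3 0.94 with SLAMF9. Between members r was highest for SLAMF7 with CD84 (0.85), SLAMF6 with CD244 (0.81) and SLAMF8 with CD244 (0.80), and lowest for SLAMF9 with SLAMF7 (-0.52).

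All 9 genes lie on chromosome 5 of EquCab3.0 within 0.905 Mb. CD244, LY9, SLAMF7, CD48, SLAMF1, CD84 and SLAMF6 follow one another within 320.6 kb (33185913 to 33506462), and SLAMF9 (33964968 to 33973559) and SLAMF8 (34081429 to 34090760) lie farther along with 3 listed genes between them, IGSF9, TAGLN2 and CFAP45. No member overlaps another gene listed. Of the 17 other genes between and beside the members 9 were tested, and 0 of these were called by limma in any of the 7 comparisons. Over all genes 0% to 3.09% were called in a comparison, so 0 of 9 is near that share. In the cluster of 7, called and uncalled members lay side by side: CD244 differed by -1.81 and its neighbour LY9 by -0.59 with PRP lysate against MSC-CM, and SLAMF6 by -1.26 beside CD84 at -0.44.

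**Figure D5:**
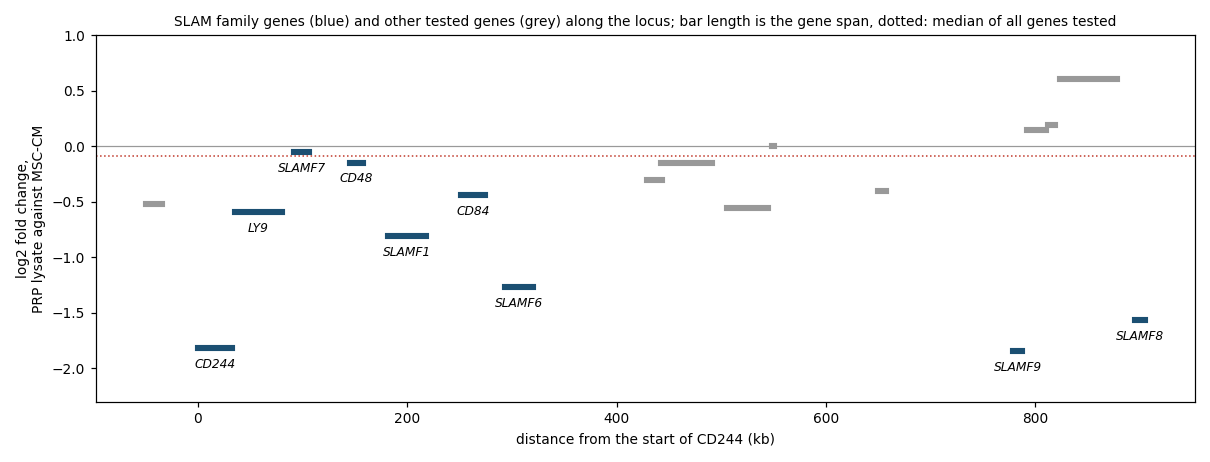
Log2 fold change with PRP lysate against MSC-CM (vertical axis) of the 9 SLAM family genes and of 9 other tested genes along the locus, by distance in kb from the start of CD244 (horizontal axis). CD244, SLAMF6 and SLAMF8, from -1.26 to -1.81, lie below every other gene shown except SLAMF9. SLAMF9, at -1.84, was selected in part on its low PRP lysate values, so its place here is a description.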

How the data were processed

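RNA of 15 macrophage cultures was captured with oligo(dT) and sequenced as paired reads. Per the labels and the study's methods, the authors trimmed adapters with cutadapt, aligned to EquCab3.0 with STAR 2.7.3, counted reads per gene with HTSeq, normalized in Partek Flow and deposited CPM values. The strand setting of the counting is not given in the sources used here. The study's text adds a further day of culture after the OT was washed away, and the labels do not.

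Values were analysed as deposited. With a tolerance of 0.05 reads, 99.4% of them were whole multiples of the CPM of 1 read, so depth and reads could be recovered. The test was limma 3.58.1 (R 4.3.3, trend) on log2(CPM + 1) over the 11628 genes averaging 1 CPM or more, with all 15 libraries and 5 groups in 1 fit and Benjamini-Hochberg adjustment over all genes within a comparison. Genes were called at an adjusted p of at most 0.05 and at least 2-fold. As alternatives edgeR 4.0.16 and DESeq2 1.42.0 were run on the recovered reads. For PRP lysate against MSC-CM edgeR called 307 genes and DESeq2 484, beside 304 by limma, and for ACS against MSC-CM 126 and 292, beside 143. Other alternatives were another pseudocount, no filter, other scalings, only the groups compared, leaving out libraries, and the replicate number as a block. The code was tested on simulated data.

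All members are named, with the 5 genes most like SLAMF9, the 2 most like each other member, and from each list the called genes and up to 4 others. The members, lists and tests were chosen with earlier results of these data known. For SLAMF9 a p-value is given only between ACS and MSC-CM, and the comparisons used in the selection are described by values and counts of calls. No p-value of a member is printed for them, apart from which had an unadjusted p of at most 0.05 with IL-1ß against untreated. Same-numbered MSC-CM and PRP lysate libraries deviated together from their group means (r = 0.63, 0.26 and 0.42 over genes), so the numbers were taken to pair these groups, although MSC-CM replicate 3 and PRP lysate replicate 2 correlated at 0.47 and MSC-CM replicate 2 and PRP lysate replicate 3 at 0.39. Exon lengths were not used, so levels are compared within a gene only. The result of 1 gene of the signalling list is not reported here.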

Additional observations from a re-analysis of the deposited data

How the results depend on the processing

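Counts below are over the 8 members other than SLAMF9. With only the 2 groups compared in the fit, called members fell to 0 with PRP lysate against IL-1ß (2 as reported) and to 0 with ACS against IL-1ß (1 as reported). With ACS against MSC-CM the count was 0 rather than 1 under size factors from the median of ratios, TMM factors and edgeR, where SLAMF8 had log2 fold changes of -0.99, -0.997 and -1.03. Leaving out 1 library gave 1 to 3 called members with PRP lysate against IL-1ß, 0 to 1 with ACS against IL-1ß (0 without ACS replicate 3), 1 to 3 with PRP lysate against MSC-CM (1 without MSC-CM replicate 3), and 0 to 1 with ACS against MSC-CM (1 only without MSC-CM replicate 2). For SLAMF9 with ACS against MSC-CM the log2 fold change was -3.02 with a pseudocount of 0.1 CPM and -3.36 by edgeR, both no longer past the threshold, and -2.11 to -1.53 without 1 library. CD244 with PRP lysate against MSC-CM lost its call without the filter (limma adjusted p = 0.0675) and with only the 2 groups (limma adjusted p = 0.129). The cause of these changes was not tested.

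The replicate block over 12 libraries left 1 called member with PRP lysate against IL-1ß and 1 with PRP lysate against MSC-CM, SLAMF8 in both, and changed no other count of called members. Same-numbered IL-1ß and PRP lysate libraries correlated at -0.77, 0.47 and -0.70 in their deviations, so those groups share only a number. No paired analysis was possible for ACS because its labels carry names, with no key to the numbers of the other groups. The ACS replicate numbers used here follow the order of its libraries. No called value changed sign. Over the alternatives for single members in comparisons tested, 556 values kept their side of the threshold and 20 lost a call. Most of the 556 were of members not called in the main fit, and all 20 losses fell on the few values called there. The losses of SLAMF9 between ACS and MSC-CM, given above, are not in these counts. Of the values used in the selection, compared here by size alone, 306 moved by less than 1 SD between replicates and 23 by more. At this depth SLAMF9 with PRP lysate and ACS rests on 2 to 23 reads a library.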
